A study of Oryza sativa Japonica Group with 20 samples.

Results

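A stretch of rice chromosome 11, between the locus numbers LOC_Os11g09000 and LOC_Os11g12000, held some of the largest RNA differences between slr1 seedlings and wild type. The 172 genes with a locus number in that range, both ends included, make up the segment, out of 34555 genes in the series. Of these, 169 were listed in the table of the slr1 experiment, 146 in the table of the gibberellin (GA) experiment and 143 in both. The segment was chosen because several of the largest slr1 differences fall in it, so its slr1 values are given as a description, with no test. The values that the choice did not use are the RNA values of the GA experiment and the H3K27me3 peaks.

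RNA was sequenced in 12 libraries of rice seedlings (Oryza sativa, Japonica group), 3 in each of 4 groups. These were slr1 seedlings, a knockout of the gene SLR1 and 12 days old, set against wild-type seedlings of that age labelled NIP, and wild-type seedlings given 100 uM GA through the roots for 1 h, set against wild-type control seedlings whose age the labels do not state. H3K27me3 was profiled in 2 slr1 libraries, 2 libraries labelled GA (100 uM for 6 h) and 2 labelled control, with wild type in both of these groups. All seedlings grew in Murashige and Skoog medium at reduced strength under long days. The sources used here do not give the kind of slr1 mutation, the parent of the line, the number of lines or whether libraries came from separate plants, so each p-value reflects library-to-library spread alone, possibly technical.

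Rice has a single canonical DELLA protein, SLR1, which holds back growth in the nucleus until GA, bound to its receptor, triggers its degradation. Rice locus numbers run in order along each chromosome, so genes with neighbouring numbers are physical neighbours. H3K27me3 is the histone mark laid down by the Polycomb complex and is typical of silent genes. No file pairs the locus IDs of the segment with gene names or functions, and the RefSeq gene table matched 0 of the 172 IDs, so the genes are given by ID alone and the labelled tissue could not be checked against marker genes.

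Values are normalised reads, which are reads per gene divided by 1 size factor per library by the authors. The slr1 experiment held between 27199217 and 28276642 normalised reads per slr1 library and between 26958961 and 29706818 per wild-type library. The GA experiment held 19148091 to 19190675 per GA library and 19507623 to 19631656 per control library. LOC_Os03g49990, paired with SLR1 from general knowledge and not by any file, stood at 7310, 6380 and 7444 normalised reads in slr1 and at 6133, 6810 and 7340 in wild type (log2 fold change 0.06 with an SE of 0.13; limma adjusted p = 0.759), and with the kind of mutation unknown these levels do not test the label.

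The clearest pattern was of genes that were on in 1 genotype and off in the other. A gene was counted as on/off where every library of 1 group was at or below 2 normalised reads and every library of the other was at or above 20. The segment held 6 such genes among its 169 listed genes (3.55%), of which 5 were off in slr1 and 1 was on. This definition was met by 22 of the 33838 genes listed, 0.065%. The other 2054 listed genes of chromosome 11 held 1 (0.0487%) and all other chromosomes held 15 among 31562 (0.0475%). The segment was chosen on this contrast, so these shares describe it and test nothing.

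LOC_Os11g09979 was the most strongly expressed of the 6. It stood at 0, 0.978 and 0 normalised reads in the 3 slr1 libraries and at 2130, 2822 and 2197 in the wild-type libraries. A single read over all slr1 libraries set against 7011 reads in wild type gave a level 7306-fold lower in slr1, with a 95% interval of 1296 to 285423 for counting error only (exact, Clopper-Pearson). LOC_Os11g11920 had no read in any slr1 library and 706, 735 and 724 normalised reads in wild type, at least 731-fold lower in slr1 when 3 reads over the group are taken as the floor. LOC_Os11g11940, its near neighbour, likewise had no read in slr1 and 313, 283 and 251 in wild type, at least 286-fold lower. Both genes were thus undetected at this depth in each slr1 library and steady across the wild-type ones.

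LOC_Os11g09200 stood at 1.01, 0 and 0 normalised reads in slr1 and at 154, 155 and 235 in wild type, 539-fold lower in slr1 (95% counting interval 98.7 to 21858). LOC_Os11g10800 stood at 0, 0.978 and 0.971 in slr1 and at 42.6, 328 and 83.4 in wild type, 233-fold lower (61.5 to 1852). Its wild-type values spread widely, since wild-type replicate 2 was above the others, but the genotypes did not overlap. LOC_Os11g11320 was the only one of the 6 that was on in slr1, at 45.4, 46.0 and 40.8 normalised reads, against 0, 0 and 0 in wild type, at least 43.4-fold higher. In bulk RNA of seedlings fewer cells of a type and less RNA per cell cannot be told apart. No genotype of either line was analysed here, so a difference in the DNA of the line, in how well its reads aligned and in transcription cannot be told apart either.

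**Figure D1:**
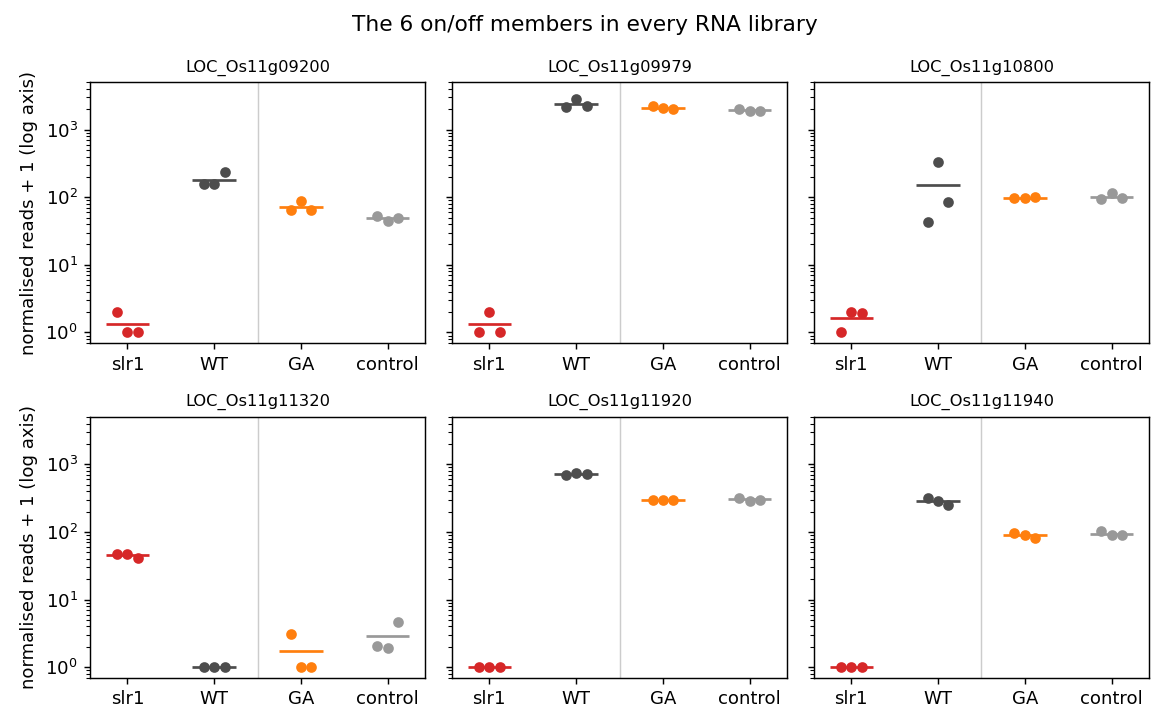
Normalised reads plus 1 (log axis) of the 6 on/off genes of the segment in each of the 12 RNA libraries (points), with the group mean as a line; the grey rule parts the slr1 experiment from the separately normalised GA experiment. The 5 genes that were off in slr1 were on in wild type and in all GA and control libraries, and LOC_Os11g11320 was on in slr1, against 0 in wild type and at most 3.73 in the GA experiment.

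Beside the on/off genes the segment held many smaller differences, most of them towards lower RNA in slr1. Genes with at least 10 normalised reads in at least 3 of the 6 libraries entered a limma fit over the whole table, and a gene was called at a Benjamini-Hochberg adjusted p under 0.05 and at least a 2-fold difference. Of the 122 members that entered, 35 were called, 27 lower and 8 higher in slr1, where 13.7% of all 25132 genes were called, 7.14% lower and 6.57% higher. That is 28.7% of the entered members, and since this contrast chose the segment nothing is read from that share. On adjusted p alone 55 passed, where 24.9% of all genes did. The filter itself lets in genes through the group in which they are high: 8 of the 35 had every slr1 library under 10 and 5 had every wild-type library under 10. Among the 109 members that reached 10 in both groups, 22 were called. The matching share over all genes is not given here, so nothing is read from that count. The other 47 listed members had group means of at most 12.6 and were not fitted. Without wild-type replicate 3 the called members numbered 23, of which 16 were lower. Called members that were higher numbered 3, 3 and 4 without slr1 replicate 1, 2 or 3. With an slr1 library left out, the 5 members under 10 in every wild-type library no longer meet the filter and leave the fit. With a wild-type library left out, the 8 under 10 in every slr1 library likewise leave it.

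Of the 27 lower members, the on/off genes included, 6 were lower by at least 16-fold, 8 by 4-fold to 16-fold and 13 by 2-fold to 4-fold, on the scale of log2(value + 1), which understates the difference of low genes. LOC_Os11g09830 came closest to the on/off genes, at 3.03, 2.94 and 3.88 normalised reads in slr1 and 282, 472 and 331 in wild type, 110-fold lower. LOC_Os11g11770 stood at 44.4, 47.0 and 42.7 in slr1 and at 583, 505 and 482 in wild type (log2 fold change -3.52, SE 0.16). LOC_Os11g11810 stood at 46.4, 48.9 and 69.9 in slr1 and at 500, 487 and 489 in wild type (log2 fold change -3.16, SE 0.20). LOC_Os11g11770 and LOC_Os11g11810 kept at least 42.7 normalised reads in every slr1 library, so they were lower but still detected.

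LOC_Os11g11890 averaged 253 ± 24.4 normalised reads in slr1 and 1478 ± 143 in wild type (SD, n = 3 each), 5.84-fold lower. LOC_Os11g11950 averaged 90.5 ± 20.9 in slr1 and 487 ± 74.4 in wild type, 5.38-fold lower. LOC_Os11g09510, a weakly expressed gene, stood at 1.01, 3.91 and 0.971 in slr1 and at 15.5, 29.8 and 16.3 in wild type. In each of the 35 called members the 3 slr1 values and the 3 wild-type values did not overlap, which the call itself favours. Over all genes that entered the fit, called or not, the groups did not overlap in 45.1%. In the segment this held for 74 of 122, and the segment was chosen on this contrast.

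Of the 8 higher members, LOC_Os11g11320 included, 3 were higher by at least 16-fold. LOC_Os11g09590 was the largest, at 1236, 1276 and 1428 normalised reads in slr1 and 7.75, 14.9 and 10.2 in wild type, 120-fold higher. LOC_Os11g10520 stood at 2136, 784 and 3532 in slr1 and at 236, 133 and 148 in wild type, 12.5-fold higher, with a wide spread among the slr1 libraries. LOC_Os11g09710 stood at 1305, 1008 and 1211 in slr1 and at 375, 371 and 311 in wild type, 3.34-fold higher. The last 2 were well expressed in both genotypes, whereas LOC_Os11g09590 was low in wild type.

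The other higher members were weak. LOC_Os11g10490 was at 15.1, 15.7 and 17.5 normalised reads in slr1 and at 0 in every wild-type library, at least 15.8-fold higher. LOC_Os11g09375 was at 12.1, 15.7 and 12.6 in slr1 and at 0 in every wild-type library, at least 13.2-fold higher. Both fell short of the level of 20 that the on/off definition asks for. LOC_Os11g09395 was at 24.2, 27.4 and 23.3 in slr1 and at 8.71, 7.45 and 4.07 in wild type.

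Called genes were counted along the segment in steps of 500 locus numbers. Over all fitted genes the called share was 13.7%. Among locus numbers 9500 to 9999, 10 of 19 fitted genes were called, 8 lower and 2 higher in slr1. Among numbers 11500 to 11999, 9 of 15 were called and all 9 were lower. These 9 lie between LOC_Os11g11770 and LOC_Os11g11990, where 12 genes were fitted, and include the on/off pair LOC_Os11g11920 and LOC_Os11g11940. From number 11000 to 11499, by contrast, 2 of 17 fitted genes were called. The remaining steps of 500 numbers had 5 of 22 called (9000 to 9499), 5 of 28 (10000 to 10499) and 4 of 20 (10500 to 10999). Each step held both called and uncalled genes. The steps held few genes each, and the segment was chosen on this contrast. Their counts are thus a description, and grouping of called genes within the segment was not tested. Over all fitted genes of the segment the median log2 fold change was -0.24, against 0.01 over all fitted genes of the slr1 experiment. Of the 74 members whose groups did not overlap, 51 were lower and 23 higher in slr1. Among all fitted genes the groups did not overlap in 11332, of which 5606 were lower and 5726 higher. Since this contrast chose the segment, its median and its split are descriptions and test nothing.

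**Figure D2:**
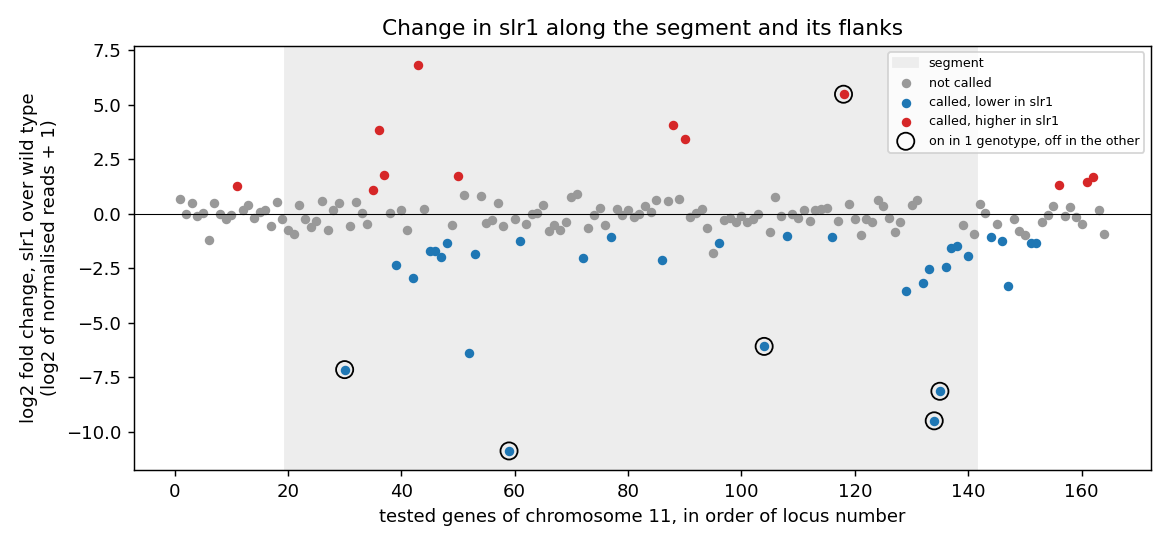
Log2 fold change of slr1 over wild type (log2 of normalised reads + 1) of each fitted gene of chromosome 11 from locus number 8000 to 12999, in order of number; the grey band is the segment, blue and red points are called genes and rings mark the 6 on/off genes. The fitted genes of the segment have a median of -0.24, and called genes among them reach -10.88 and 6.82.

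Of the genes at the ends of the segment, LOC_Os11g11990 was called and the others were not called or, for LOC_Os11g08970 and LOC_Os11g09000, too low to be fitted. Just outside its start LOC_Os11g08970 averaged 0.66 normalised reads in slr1 and 3.36 in wild type, and LOC_Os11g08980 averaged 511 in slr1 and 609 in wild type. Just inside, LOC_Os11g09000 averaged 0.652 in slr1 and 0 in wild type, and LOC_Os11g09010 averaged 1211 in slr1 and 2125 in wild type. At the far end LOC_Os11g11990 averaged 148 in slr1 and 558 in wild type and LOC_Os11g12000 averaged 953 in slr1 and 1834 in wild type. Just outside, LOC_Os11g12010 averaged 97.9 in slr1 and 70.8 in wild type and LOC_Os11g12020 averaged 9.54 in slr1 and 9.45 in wild type. Before the start, 0 of 10 fitted genes were called from 8000 to 8499 and 1 of 9 from 8500 to 8999. At the other end, 5 of 15 were called from 12000 to 12499, a step that still holds the uncalled member LOC_Os11g12000. From 12500 to 12999, 3 of 9 were called. Called genes thus also lay past number 12000. Over all fitted genes 13.7% were called, and each step held few genes, so no edge of the segment is read from these counts. None of these 4 steps held an on/off gene.

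Set in equal steps of 3000 locus numbers over all 12 chromosomes, the step from 9000 to 11999 of chromosome 11 held 6 on/off genes. Of the other steps with at least 20 fitted genes, 198 held 0, 14 held 1 and 1 held 2. Its share of called genes, 28.9%, was second among those steps, behind 1 step of chromosome 4 at 29.4%, and the median of the others was 13.5%. Of the 109 genes called with at least a 16-fold difference anywhere, 9 (8.26%) were in the segment and 11 (10.1%) on the rest of chromosome 11. Its rank was thus first for on/off genes and for differences of at least 16-fold (9, against at most 5 in any other step) and second for the share of called genes. The segment was chosen on these differences and the steps line up with its bounds, so the ranks describe it and test nothing.

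**Figure D3:**
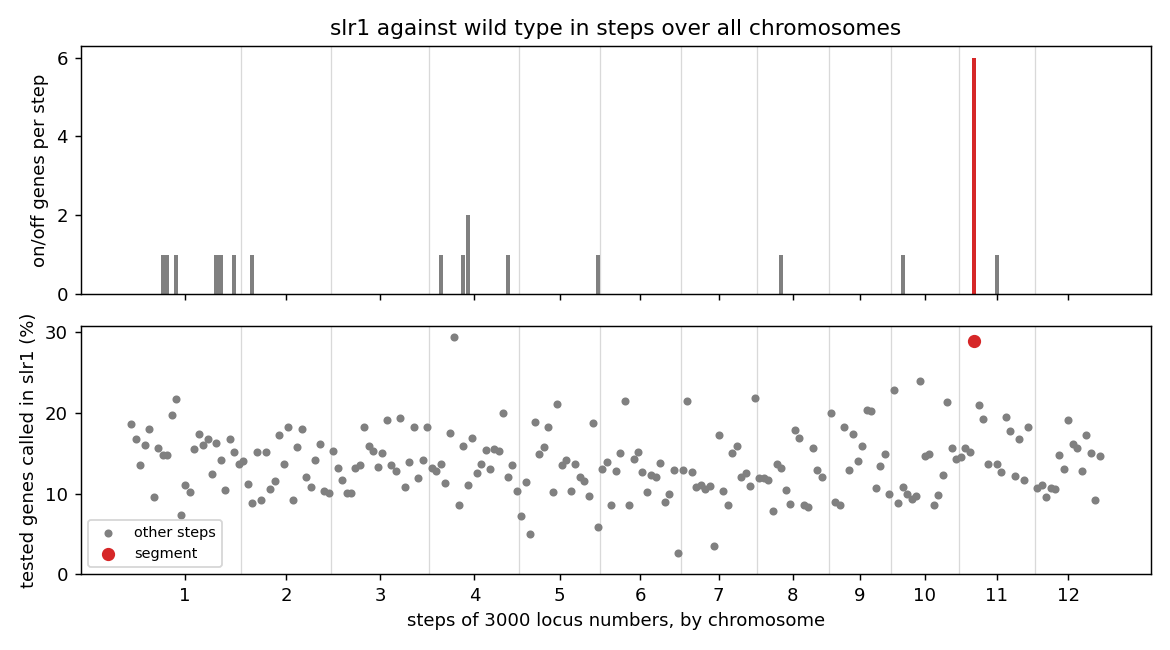
Upper panel, on/off genes in slr1 against wild type per step of 3000 locus numbers over the 12 chromosomes; lower panel, percent of fitted genes called in each step with at least 20 fitted genes, with the segment in red. The segment's step holds 6 on/off genes, against at most 2 in any other step, and 28.9% called genes, against a median of 13.5%. The segment was chosen on this contrast, so the panels describe it and test nothing.

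Called genes of the segment had a lower median spread between replicates than called genes elsewhere. The median SD of log2(value + 1) within a group was 0.229 for the 35 called members, 0.385 for the 216 called genes on the rest of chromosome 11 and 0.384 for the 3194 on other chromosomes. Their median absolute log2 fold change was 2.11, against 1.54 and 1.52. For genes that were not called the median SD was 0.21 in the segment, 0.246 on the rest of chromosome 11 and 0.218 on other chromosomes. These medians are descriptions of genes picked by the same fit.

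Of the 87 fitted members that were not called, 55 had an absolute log2 fold change under 0.5. The 4 most abundant members were not called either, with log2 fold changes between -0.53 and 0.40. In each of them slr1 and wild type did not overlap, which held for 45.1% of all fitted genes, so nothing is read from it. LOC_Os11g09280, the most abundant member, averaged 9390 ± 1560 normalised reads in slr1 and 13515 ± 1350 in wild type (SD, n = 3 each). LOC_Os11g10100 averaged 4700 ± 650 in slr1 and 6630 ± 284 in wild type, LOC_Os11g10070 averaged 4510 ± 29.8 in slr1 and 3422 ± 144 in wild type, and LOC_Os11g11390 averaged 3324 ± 561 in slr1 and 4328 ± 476 in wild type. Together the listed members held 0.293% to 0.3% of the normalised reads of a slr1 library and 0.322% to 0.37% of those of a wild-type library.

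The GA experiment gave levels of the same genes in wild-type seedlings that the choice of the segment did not use. All 5 members that were off in slr1 were present there, with at least 10 normalised reads in every GA and control library. They were picked for at least 20 in every wild-type library of the slr1 experiment. Presence in other wild-type seedlings is favoured by that choice and tests nothing. LOC_Os11g09979 stood at 2213, 2077 and 2040 in GA seedlings and at 2042, 1906 and 1854 in control seedlings, and LOC_Os11g11920 at 291, 292 and 292 in GA and 321, 291 and 296 in control. LOC_Os11g11940 ranged from 81.6 to 103 over these 6 libraries, LOC_Os11g10800 from 91.9 to 116 and LOC_Os11g09200 from 43.8 to 86.5. LOC_Os11g11320, on in slr1 and picked for at most 2 in every wild-type library, ranged from 0 to 3.73. The tables were normalised separately, so only presence and order of size are compared across them.

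The other called members were mixed. Of the 22 others that were lower in slr1, 17 had at least 10 normalised reads in every library of the GA experiment and 2 were under 10 in every one, but most of the lower members also had more than that in slr1. Of the 7 others that were higher in slr1, 5 were listed there, and 3 of these were at or below 5 in every library. One of the 3, LOC_Os11g09590, with 1236 to 1428 normalised reads in slr1, stood at 0, 0 and 1.05 in GA seedlings and at 0, 0 and 1.87 in control seedlings. Of the called members listed in both tables, on/off genes included, the mean level in control seedlings was nearer to wild type than to slr1 for 12 of 27 lower members and for 6 of 6 higher members. On the rest of chromosome 11 it was nearer to wild type for 32.4% of the lower and 79.1% of the higher called genes. On other chromosomes these shares were 25.8% and 77.5%. LOC_Os11g11950 and LOC_Os11g11990 were among the 15 lower members nearer to slr1: the first averaged 90.5 in slr1, 487 in wild type and 93.2 in control seedlings, and the second 148, 558 and 114. The tables differ in total normalised reads, which bears on all of these distances.

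Across the 33 called members listed in both tables, the mean level in slr1 (log2) had a Pearson r of 0.08 with that in control seedlings, and the mean level in wild type an r of 0.86. For called genes on the rest of chromosome 11 (n = 215) the same values were 0.82 and 0.85, and on other chromosomes (n = 3182) 0.83 and 0.84. Over all 120 fitted members in both tables they were 0.59 and 0.88. These are correlations across genes, which are not independent replicates and share their libraries. The called members were picked for a difference between slr1 and wild type, in a segment chosen on the same values, and had larger differences than called genes elsewhere, so a lower r in slr1 is bound up with that choice and nothing is read from it.

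**Figure D4:**
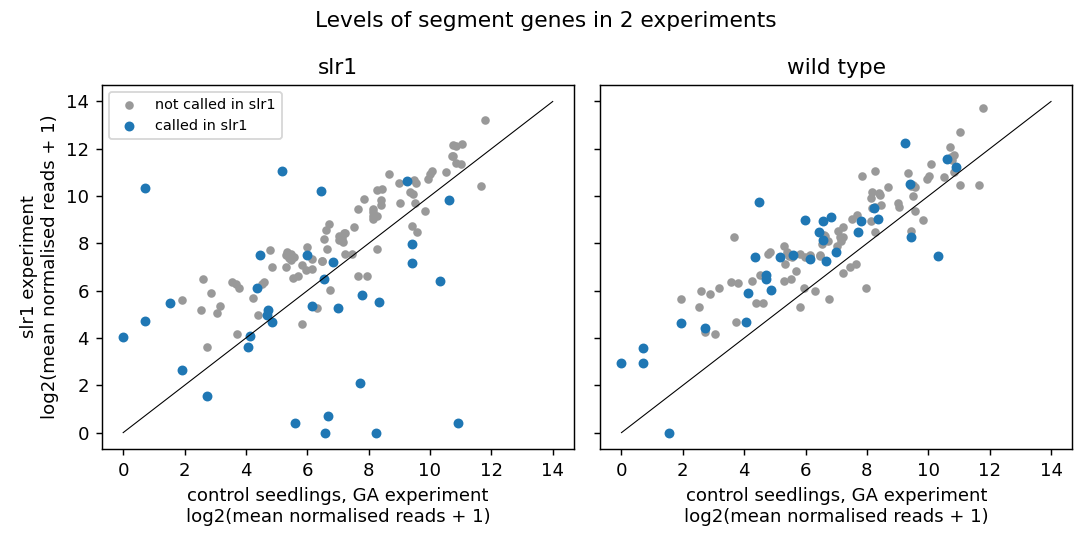
Mean level, log2(normalised reads + 1), of the 120 fitted segment genes listed in both tables: control seedlings of the GA experiment on the x axis, and slr1 (left) or wild type (right) of the slr1 experiment on the y axis, with the line of equal values. Genes called in slr1 (blue) have r = 0.08 in slr1 and r = 0.86 in wild type (n = 33); they were picked for differing between the genotypes, so the scatter in slr1 is no finding.

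In the segment 1 gene passed both the adjusted p and the 2-fold limit after 1 h of GA. Of 109 members tested with limma in the GA experiment, 1 was called (0.917%), where 2.22% of all 23283 genes were, 1.22% higher and 0.996% lower, and none was on/off (1 gene, 0.0032%, over the whole table). LOC_Os11g10330 rose after GA, at 28.9, 21.4 and 32.4 normalised reads in GA seedlings and 15.5, 9.32 and 7.47 in control seedlings (log2 fold change 1.32, SE 0.34, limma adjusted p = 0.00267). Its values overlapped between genotypes, at 89.8, 85.1 and 69.0 in slr1 and 78.4, 83.1 and 86.4 in wild type. The remaining 37 listed members were too low to be tested.

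On adjusted p alone 27 of the 109 passed, 14 higher and 13 lower after GA, or 24.8%, where 33% of all tested genes did. On unadjusted p 35 were under 0.05 (32.1%), where 41.5% of all genes were, and in 33 (30.3%) the GA and control libraries did not overlap, where 43.3% of all genes did not. Apart from LOC_Os11g10330, the log2 fold changes of those past the adjusted p lay between -0.66 and 0.64. Of the 4 most abundant members, LOC_Os11g09280 averaged 4521 ± 96.7 in GA seedlings and 3529 ± 28.2 in control seedlings (log2 fold change 0.36, SE 0.03, limma adjusted p = 3.82e-11). LOC_Os11g11390 had a log2 fold change of 0.34 (SE 0.04, limma adjusted p = 2.8e-08), LOC_Os11g10100 of 0.12 (adjusted p = 0.0132) and LOC_Os11g10070 of 0.11 (adjusted p = 0.0412).

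Of the members that differed in slr1, none was called after GA by limma or by edgeR, where limma called 2.22% of all tested genes. An unadjusted limma p was under 0.05 in 7 of the lower and 1 of the higher ones, against 41.5% of all tested genes. Among the 25 lower ones tested there, 6 passed on adjusted p alone, where 33% of all tested genes did. The log2 fold changes of all 25 lay between -0.53 and 0.56. The on/off gene LOC_Os11g09979 was higher by a log2 fold change of 0.13 (SE 0.04; adjusted p = 0.0176 by limma). LOC_Os11g09200 was higher by 0.56 (SE 0.19; adjusted p = 0.021 by limma). Neither LOC_Os11g11920 (log2 fold change -0.05, limma adjusted p = 0.686) nor LOC_Os11g11940 (-0.08, 0.738) nor LOC_Os11g10800 (-0.05, 0.833) passed. The 2 higher members that could be tested were LOC_Os11g09710, at 0.56 (adjusted p = 0.00389), and LOC_Os11g10520, at 0.12 (adjusted p = 0.747). The GA and slr1 contrasts do not share libraries, and the difference between them was not tested.

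Along chromosome 11, H3K27me3 was lowest in slr1, relative to the other libraries, in 2 neighbouring steps of 1 Mb. No file pairs locus IDs with coordinates, so the files do not tell whether these steps hold segment genes, and no source used here names the build of the coordinates. The 2 slr1 libraries had 48.8 and 40.1 kb under peaks between positions 5000001 and 6000000, against 55.9 and 54.4 kb in the libraries labelled GA and 56.8 and 69.3 kb in those labelled control. Between 6000001 and 7000000 they had 56.5 and 45.8 kb, against 64.3 and 74.0 kb in the libraries labelled GA and 69.5 and 77.8 kb in those labelled control. These were 75.2% and 71.6% of the mean of the 4 other libraries and the lowest of the 30 steps of the chromosome (median 100%, highest 128%), and the only 2 steps in which both slr1 libraries were below all 4 others.

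Peaks joined over the 6 libraries gave 38 regions between 5000001 and 6000000, of which 7 were marked in all 4 other libraries and in neither slr1 library and 3 in both slr1 libraries alone. Between 6000001 and 7000000 these counts were 4 and 0 of 40 regions, between 4000001 and 5000000 they were 7 and 2 of 65, between 19000001 and 20000000 they were 6 and 0 of 74, and over the 1359 joined regions of chromosome 11 they were 46 and 23. Mean fold enrichment of the peaks in the first of these steps, the authors' value, was 3.7 and 3.34 in slr1, 3.75 and 4.18 in the libraries labelled GA and 3.84 and 3.95 in those labelled control. Both slr1 libraries were also below all 4 others in the steps starting at 4000001, 6000001, 7000001 and 8000001, but not at 3000001. From 7000001 the values were 3.28 and 3.16 in slr1 against 3.65 to 4.18, with covered length at 101%. A lower fold enrichment in slr1 was thus not particular to the first step. The peak names inside the files labelled control carry a 6 h tag and those inside the files labelled GA carry CK, so these 2 labels may be exchanged; slr1 is therefore set against all 4. No H3K27me3 library came from wild type of the slr1 experiment, so genotype and experiment cannot be told apart in these values.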

How the data were processed

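Per the submitters' processing notes, the RNA tools were featureCounts 2.0.0, DESeq2 1.38.3, HISAT2 and DESeq, and H3K27me3 reads with Trim Galore 0.6.6, Bowtie2 2.4.4, MACS2 2.2.7.1 and deepTools 3.5.0. No source used here names the genome build, the annotation or the strand setting, so reads of overlapping, antisense or near-identical genes cannot be told apart. The deposited value of each RNA library is a signal, reads divided by a size factor. The authors' log2 fold changes, test scores and p-values are deposited beside it. Of these only the sign of the log2 fold changes was used, to check the direction of each contrast. The authors' broad peaks carry a score, a fold enrichment ratio and −log10 p and q. Dividing by the lowest value above 0 gave whole numbers (tolerance 0.01) for 100% of each RNA library.

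limma 3.58.1 (R 4.3.3) was fitted with a trend on log2(value + 1) within each table over all genes with at least 10 in at least 3 of 6 libraries. The step of 1 read in slr1 replicate 1, 1.00949, was too close to 1 for a check of the unit to accept recovered reads. For that reason edgeR 4.0.16 (quasi-likelihood, TMM) was run for the GA table alone. The read counts, floors and counting intervals given for the slr1 experiment do take each library's step as 1 read. The limma fit was tested on simulated data. Groups came from the titles. Named genes were the on/off members, the 6 most lowered and 6 most raised other called members, members called after GA, the 4 most abundant and those at the ends. The segment and its rules were chosen with earlier results of these data known. Intervals cover counting error only, since reads without molecular identifiers are not independent molecules.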

Additional observations from a re-analysis of the deposited data

How the results depend on the processing

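The count of 35 called members in slr1 became 55 on adjusted p alone and lay between 23 and 31 without 1 library. The lowest, 23, came without wild-type replicate 3, when calls over all genes also fell to 2174 of 24674. Leaving out a library also removes members that are on in 1 group from the fit, which asks for 3 libraries, so that 113 to 117 members were fitted. The other settings (pseudocount, filter, quantile normalisation, a segment widened at each end, added after seeing the data) gave between 31 and 44. With a replicate block, 33 members were called in slr1 and 1 after GA; same-numbered libraries deviated together with r of -0.162 to 0.192 (slr1) and -0.033 to -0.014 (GA), so the numbers did not pair them. The 6 on/off genes became 3 where off meant 0 in every library, and 4 to 8 under the other limits; without any 1 library there were 6. After GA, 1 member was called without any 1 library and with edgeR on recovered reads (535 genes called in all), 27 on adjusted p alone and 2 with no filter. The count of on/off members after GA was 0 under each setting run. That of slr1-off members present in the GA experiment was 5 under each setting run, which their choice by wild-type levels favours. For peaks with −log10 q of at least 5, the slr1 share of covered length between 6000001 and 7000000 was 59.3%, and 72.4% in the step before; without 1 library the shares lay between 64.1% and 79.1%, and between 67.9% and 82.6%. edgeR was not run in the slr1 table.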
